A study of Caenorhabditis elegans with 2 samples.

Results

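Divergent promoters are stretches of DNA from which 2 neighbouring genes are transcribed away from each other, and the 511 peaks described here are those of the MDL-1 protein that lie in such stretches on the autosomes and lack its canonical binding sequence. They were taken from 3870 peaks that the authors kept as reproducible by the irreproducible discovery rate (IDR), a measure of how well replicates rank the same peaks. A peak was a member when its summit lay in the promoter windows of at least 1 plus-strand and 1 minus-strand protein-coding gene at once and no E-box, CACGTG, lay wholly within 50 bp of the summit. A promoter window took in the 1000 bp before and the 200 bp after a gene's annotated 5' end. The remaining autosomal promoter peaks without E-box were 954 with a summit in windows of 1 strand only, called one-sided below. The rule itself uses no score beyond inclusion in the authors' list, though it was drawn up with earlier results of these data known. All members came from chromatin immunoprecipitation and sequencing (ChIP-seq) of whole L1 larvae of Caenorhabditis elegans, the first larval stage, in 2 biological replicates of 1 group. The strain, OP106, has the genotype unc-119(ed3) III; wgIs106, where wgIs106 is an integrated transgene for mdl-1 fused to eGFP, and animals of both sexes were pooled. The peaks are therefore those of a tagged transgene product in all tissues at once. There was no other condition. No read totals come with the lists, which leaves the depth of sequencing unknown.

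In the worm, MDL-1 is the counterpart of the vertebrate MAD transcription factors. As background, MAD proteins pair with a MAX-like partner, MXL-1 in the worm, bind CACGTG, and are known in mammals as repressors that recruit histone deacetylases and oppose MYC. A peak between divergent genes cannot be given to either of them from its position alone. Many annotated 5' ends in the worm also mark the site where a splice leader is joined rather than the start of transcription, so distances to them are distances to the annotation.

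The sequences at the highest summits are shown first, because the rule leaves them without CACGTG, the known site of the protein. Its absence is not particular to the members, since 509 of all 3870 IDR peaks held CACGTG within 50 bp of the summit. Each is the 101 bp centred on the summit, plus strand of ce11, in lower case. Capitals mark hits on either strand of 4 short sequences whose shares are compared further on. The first is the motif CTGCGTC. The others are the hexamer GCGCAC, the hexamer ACCGTA and the repeat GAGAGA, which were chosen for display after their shares were seen. The 6 members of highest score on chromosomes II to V are these.
K01G5.10/tasp-1, chrIII:10759235-10759335: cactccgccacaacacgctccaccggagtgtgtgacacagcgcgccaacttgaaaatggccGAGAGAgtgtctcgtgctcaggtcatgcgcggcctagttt
iff-2/F54C9.14, chrII:8561394-8561494: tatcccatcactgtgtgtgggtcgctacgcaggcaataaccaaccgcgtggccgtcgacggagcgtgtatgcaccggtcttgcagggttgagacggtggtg
rpl-15/K11H12.8, chrIV:654871-654971: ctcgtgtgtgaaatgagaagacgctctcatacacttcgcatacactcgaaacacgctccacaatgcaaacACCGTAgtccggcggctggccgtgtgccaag
nhl-2/tag-340, chrIII:4899877-4899977: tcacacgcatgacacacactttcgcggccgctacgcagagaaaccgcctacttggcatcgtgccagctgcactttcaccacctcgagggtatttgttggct
ska-3/rps-12, chrIII:5679079-5679179: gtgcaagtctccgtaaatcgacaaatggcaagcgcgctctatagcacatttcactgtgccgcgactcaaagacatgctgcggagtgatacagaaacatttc
ifet-1/rps-1, chrIII:4475615-4475715: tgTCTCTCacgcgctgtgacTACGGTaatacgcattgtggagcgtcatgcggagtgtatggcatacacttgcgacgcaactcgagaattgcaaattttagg

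In these 6 windows, 3 held at least 1 of the marked sequences and 3 held none of them. Further windows are shown as examples of CTGCGTC (imp-2/enpl-1 and mrps-7/Y57G11C.3) and of GCGCAC (rpl-20/Y17G9B.5 and larp-1/wip-1), chosen by score among the members that hold the sequence.
imp-2/enpl-1, chrIV:11119198-11119298: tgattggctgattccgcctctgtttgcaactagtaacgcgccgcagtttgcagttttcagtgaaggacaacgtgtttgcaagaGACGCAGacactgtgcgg
mrps-7/Y57G11C.3, chrIV:14767844-14767944: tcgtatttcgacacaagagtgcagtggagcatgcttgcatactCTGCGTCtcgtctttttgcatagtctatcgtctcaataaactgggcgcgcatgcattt
rpl-20/Y17G9B.5, chrIV:4750040-4750140: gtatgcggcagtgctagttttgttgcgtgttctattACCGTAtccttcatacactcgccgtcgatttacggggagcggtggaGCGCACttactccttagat
larp-1/wip-1, chrIII:5018265-5018365: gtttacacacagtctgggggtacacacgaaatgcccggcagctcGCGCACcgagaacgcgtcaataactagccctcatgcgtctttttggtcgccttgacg

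Each peak carries a score given by the authors' peak caller, on a scale not given in the sources used here, so scores serve only to order peaks within 1 list. Members had pooled scores from 32.9 to 623, with a median of 63.8 and quartiles of 45.8 and 95.6. The median of the one-sided peaks was 59.1 and that of all 3870 peaks was 58.8. The highest member lay between K01G5.10 and tasp-1, a gene named for the protease taspase, at chrIII:10759116-10759449. Its pooled score was 623, its rank was 2 in replicate 1 and 10 in replicate 2, and its summit lay 22 bp upstream of tasp-1. The second lay between iff-2, which encodes a translation initiation factor of the eIF5A family, and F54C9.14, with a score of 498 and ranks 17 and 9. Its summit was 77 bp upstream of iff-2. Next came the peak between rpl-15, a protein of the large ribosomal subunit, and K11H12.8, with a score of 463 and ranks 13 and 18. The peak between nhl-2, which encodes a cofactor of microRNA-mediated repression, and tag-340 had a score of 411 and ranks 28 and 23. These 4 peaks stood within the highest 28 of each replicate.

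Ribosomal and translation genes recurred among the 20 highest members. The ska-3/rps-12 peak scored 333, with ranks 65 and 31. The ifet-1/rps-1 peak joined the gene for an eIF4E-binding translational regulator with that for a small-subunit protein, and it scored 330 with ranks 51 and 49. Among the others were rpl-20/Y17G9B.5 (score 310), rps-19/hsr-9 (283), rpl-12/lin-54 (274), eef-1A.1/rfc-4 (241) and tmem-107/rps-26 (199). Genes of other functions were present as well. The pdi-3/ubql-1 peak, beside a protein disulfide isomerase, scored 308, with ranks 59 and 75. The imp-2/enpl-1 peak, 50 bp upstream of the gene for the endoplasmic reticulum chaperone GRP94, scored 286, with ranks 70 and 91. The W03C9.5/mex-1 peak scored 284 and lay 926 bp upstream of mex-1, an RNA-binding protein gene of the early embryo, and rab-7, the GTPase of late endosomes, also had its window there. The malt-1/ceh-38 peak scored 256 and lay 30 bp downstream of the 5' end of ceh-38, a homeobox gene of the ONECUT class.

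The members come from a list that keeps peaks ranked alike by the replicates, so their presence in both is in part set by that selection. Of the 511 members, 437 had a summit within 100 bp among the 3870 highest peaks of replicate 1, or 85.5%, against 86.2% of all 3870 IDR peaks. For replicate 2 the count was 452 members, or 88.5%, against 79.5% of all IDR peaks. One-sided peaks had 85.1% in replicate 1 and 82.5% in replicate 2. Both replicates had 386 members (75.5%), against 67.8% of all IDR peaks and 69.7% of the one-sided ones (665 of 954). The difference between members and one-sided peaks had an odds ratio of 1.34 by a two-sided Fisher's exact test, p = 0.0206, or 0.0309 after Benjamini-Hochberg adjustment over 3 such tests. Unadjusted, the same exact test was not past the threshold with a match distance of 200 bp (p = 0.0642) or with summits of any rank (p = 0.0577). The median rank of members was 1926 in replicate 1 and 1534.5 in replicate 2, against 2020.5 and 1856 for one-sided peaks. Ranks were higher in replicate 1 for 210 members, or 41.1%, for 44.7% of one-sided peaks and for 51.7% of all IDR peaks.

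**Figure D1:**
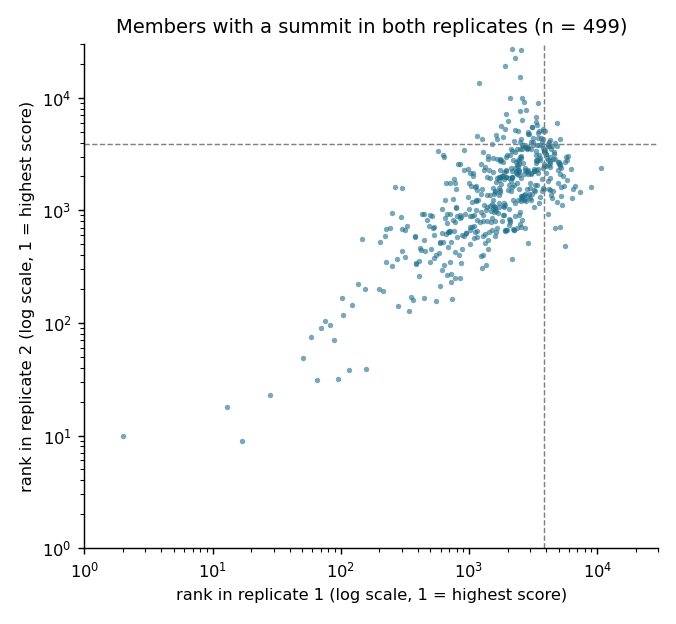
Rank of each member's nearest summit within 100 bp in replicate 1 (x axis, log scale) and replicate 2 (y axis, log scale), for the 499 members with a summit in both relaxed lists of 30000 peaks. Dashed lines mark rank 3870, and 386 points lie at or below both lines.

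Members absent from the highest 3870 of 1 or both replicates numbered 125, and 119 of these ranked below the highest 1935 of the IDR list. The highest of them was the let-630/hcp-6 peak, with a pooled score of 84.2. It ranked 1161 in replicate 2 and had no summit within 100 bp in the list of replicate 1. The F44E5.4/F44E5.5 peak, between genes of the Hsp70 family, scored 70.1, with ranks 5583 and 483. The eif-3.D/R08D7.4 peak, beside a subunit of translation initiation factor eIF3, scored 64.9, with ranks 4679 and 692. The natb-1/abhd-12 peak scored 61.2, with ranks 5095 and 708. The fbxa-108/dgat-2 peak scored 61.1 and went the other way, with ranks 1260 and 4334. Members stood among the highest 967 peaks of the IDR list in 145 cases (28.4%), against 225 one-sided peaks (23.6%). That difference did not pass the threshold in a two-sided Fisher's exact test (odds ratio 1.28, p = 0.0504).

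Divergent promoters held more of the autosomal promoter summits than their share of DNA. With E-box peaks included, 535 of 1621 such summits lay in windows of both strands, or 33.0% (exact 95% interval 30.7 to 35.4%), while 10.7% of the window bases did. That came to 271 summits per Mb of divergent window and 66.1 per Mb of one-sided window. The nearer 5' end was a median of 142 bp from the summit in members and 236.5 bp in one-sided peaks. The rule lowers the first of these values, since a member has an end on each strand within its window and the nearer of them is taken. The farther partner's end was a median of 334 bp away. In 472 members the summit lay between the 5' ends, and in 39 it lay downstream of 1 of them. In those 472 the median position was 0.514 of the way from the minus-strand to the plus-strand end, with quartiles of 0.316 and 0.695. The nearer end belonged to the plus-strand gene in 274 members and to the minus-strand gene in 236. The summit was outside annotated exons and introns in 465 members, or 91.0%, against 84.8% of one-sided peaks, and in a coding exon in 4.

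**Figure D2:**
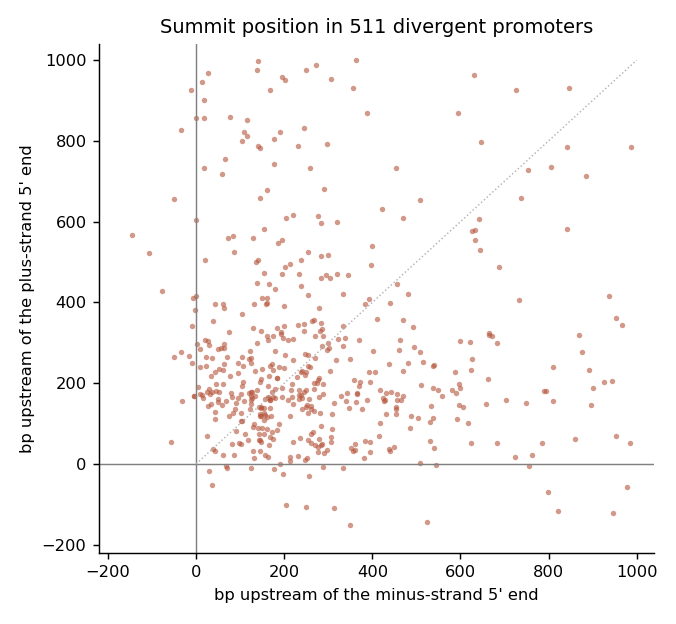
Position of the 511 summits as bp upstream of the nearest minus-strand 5' end (x axis) and of the nearest plus-strand 5' end (y axis), negative where the summit is downstream. Grey lines mark the 5' ends, and the dotted diagonal marks equal distances. Both ends lay within 300 bp of the summit in 226 members.

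The spacing of the 5' ends had a median of 486 bp in members, against 658 bp in all 2382 adjacent divergent gene pairs of the autosomes whose 5' ends lie within 2000 bp. Of these pairs, 504 held a member, or 21.2% (19.5 to 22.9%). The share was highest, 36.5%, at spacings of 301 to 500 bp, where 142 of 389 pairs held one. It was 33.2% at 201 to 300 bp and 15.7% at 200 bp or less. For wider pairs it was 25.9% at 501 to 750 bp, 22.3% at 751 to 1000 bp, 9.73% at 1001 to 1500 bp and 2.55% at 1501 to 2000 bp. The rule shapes the last 2 values, since pairs wider than 1000 bp have ever less DNA in both windows. Per Mb of shared window, the density ran from 510 members at 201 to 300 bp to 98.2 at 1501 to 2000 bp. By chromosome, 31.4% of pairs on III and 27.6% on I held a member, against 18.9% on IV, 18.2% on II and 14.6% on V.

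**Figure D3:**
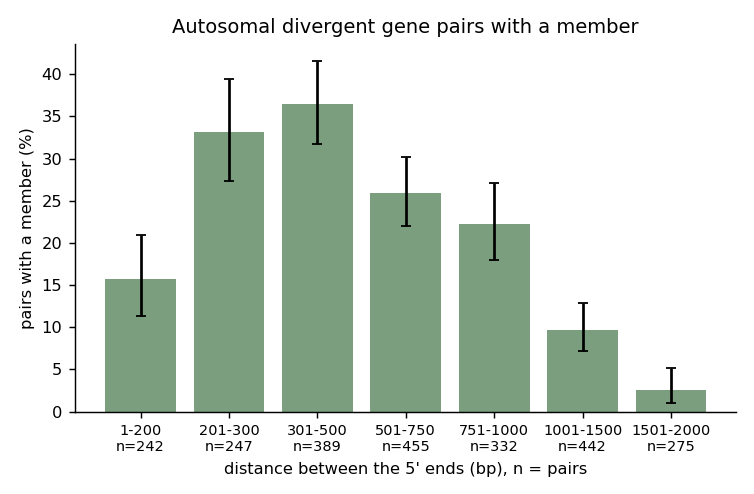
Share of autosomal divergent gene pairs with a member (y axis, percent) by distance between their 5' ends (x axis, bp), with exact 95% intervals as bars and the number of pairs under each. The share was highest at 301 to 500 bp, 36.5%.

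The closest-spaced members of high score show the range of positions. The ska-3/rps-12 ends were 293 bp apart, with the summit 124 bp from one and 169 bp from the other. The rab-18/kbp-4 peak, at a small GTPase gene and a kinetochore protein gene, had its summit downstream of the rab-18 end and 157 bp upstream of kbp-4. That peak scored 238 with ranks 102 and 168. The ctf-4/eef-1G ends were 180 bp apart, with the summit 16 bp upstream of eef-1G, a subunit of translation elongation factor 1, and a score of 180. The clsp-1/eef-2 ends were 265 bp apart, with the summit 14 bp upstream of the elongation factor 2 gene and a score of 161. A pair held at most 2 members, in 5 cases: F15D3.6/timm-23, aka-1/ubc-6, ecps-1/atx-2, larp-5/sld-2 and rab-11.1/rpl-7. The rab-11.1/rpl-7 pair had scores of 81.1 and 38.8 at its summits. Windows of 3 or more genes took in 37 members, and all members together touched 1050 genes.

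The gene lists with the highest shares of members were those of basic cell functions. Of the 17242 autosomal protein-coding genes, 6.09% had a member in the promoter window, and each list below is given beside that share and without a test. Only a gene whose window overlaps that of an opposite-strand gene can hold a member. Such genes were 30.7% of all autosomal genes. In the lists of this paragraph they ran from 42.4% of mitochondrial ribosomal proteins to 72.7% of the proteasome. Cytosolic ribosomal proteins came first, with 44 of 81 genes (54.3%, exact interval 42.9 to 65.4%). Their windows overlapped that of an opposite-strand gene in 53 cases, so 83.0% of those with such a neighbour had a member, against 19.9% of all 5285 autosomal genes with one. Splicing and snRNP genes had 22 of 55, translation factors 14 of 41, nuclear pore and transport genes 14 of 43, and chaperones 22 of 68. Oxidative phosphorylation had 16 of 51, the proteasome 10 of 33, vesicle traffic 26 of 114, and cell cycle and DNA replication 18 of 80. Nucleolus and ribosome assembly genes had 8 of 35, mitochondrial ribosomal proteins 12 of 66 and aminoacyl-tRNA synthetases 4 of 31. Of the genes with such a neighbour, 66.7% had a member in splicing, 59.5% in chaperones, 53.8% in translation factors and 51.9% in the nuclear pore. The share was 51.6% in oxidative phosphorylation, 45% in the cell cycle, 44.4% in the nucleolus and 42.9% in mitochondrial ribosomal proteins. It was 41.7% in the proteasome, 40.6% in vesicle traffic and 26.7% in aminoacyl-tRNA synthetases, against 19.9% of all such autosomal genes. IDR peaks of any kind, members included, lay in the windows of 69 of the 81 ribosomal genes, against 2180 of all 17242. The same count was 27 of 55 for splicing, 22 of 41 for translation factors and 24 of 43 for nuclear pore genes. The lists are therefore rich in IDR peaks as a whole, and the shares of members are part of that. Neighbouring genes share a peak, so the genes of a list are not independent of the genes beside them.

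The summit was not nearer to the ribosomal gene than to its partner in most of these promoters. Of 45 cases in which a cytosolic ribosomal protein gene was the nearest gene on its strand, it was the nearer of the pair in 16, with a median of 305 bp to its 5' end and 199 bp to the partner's. Nuclear pore and chromatin genes were the nearer in 3 of 14 cases each, and proteasome genes in 8 of 10. Within splicing, prp-8, the core protein of the spliceosome, had a member of score 134, and the rsp-2/rsp-1 peak, between SR protein genes, scored 125. Among chaperones, cct-1, a subunit of the cytosolic chaperonin, had a member of score 196, and hsp-60, the mitochondrial chaperonin, one of 162. The hsp-16.2/hsp-16.41 intergenic region, known for its strong induction by heat, held a member of score 61.5, with ranks 3194 and 1068. In the proteasome, rpn-3 shared its peak of score 125 with hsp-110, and rpt-2, an ATPase of the regulatory particle, shared one of 104 with aps-1. In oxidative phosphorylation, atp-1, a subunit of ATP synthase, had a summit at its 5' end with a score of 152.

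Among regulators, chromatin regulators had 14 of 74 genes, including lin-54 (score 274), the DNA-binding subunit of the DRM complex, lin-53 (166), a histone-binding protein, and set-16 (148), an MLL-type methyltransferase. In the cell cycle list, lin-35, the worm's retinoblastoma protein, shared a peak of 91.2 with vps-51, and efl-1, an E2F factor, had one of 99.5. In signalling, rheb-1, the GTPase upstream of TOR, had a member of score 79.4, and the Rag GTPase gene ragc-1 one of 83.2. None of 4 autosomal genes of the MAD, MAX and Mondo network had a member, and 1 had an IDR peak of another kind in its window. Only 1 of the 4 had an overlapping opposite-strand window, so the absence of members says little about them. Gene families of the worm's large expansions had members rarely. Chemoreceptors had 8 of 1275 genes (0.627%), C-type lectins 1 of 237, F-box genes 6 of 305, nuclear hormone receptors 4 of 247, and neuropeptides 2 of 108. Of the chemoreceptor genes, 294 had an overlapping opposite-strand window, and 2.72% of those had a member. Only 45 nuclear hormone receptor genes and 15 neuropeptide genes had such a window. An IDR peak of any kind lay at 34 of the 247 nuclear hormone receptor genes, against 2180 of all 17242 autosomal genes. That count was 12 for chemoreceptors, 6 for C-type lectins, 10 for F-box genes and 4 for neuropeptides. Histone genes had 5 of 77 (6.49%), near the share of all autosomal genes. Of the 65 histone genes with an overlapping opposite-strand window, 7.69% had a member, against 19.9% of all such genes, and their near-identical copies leave the placing of reads uncertain.

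**Figure D4:**
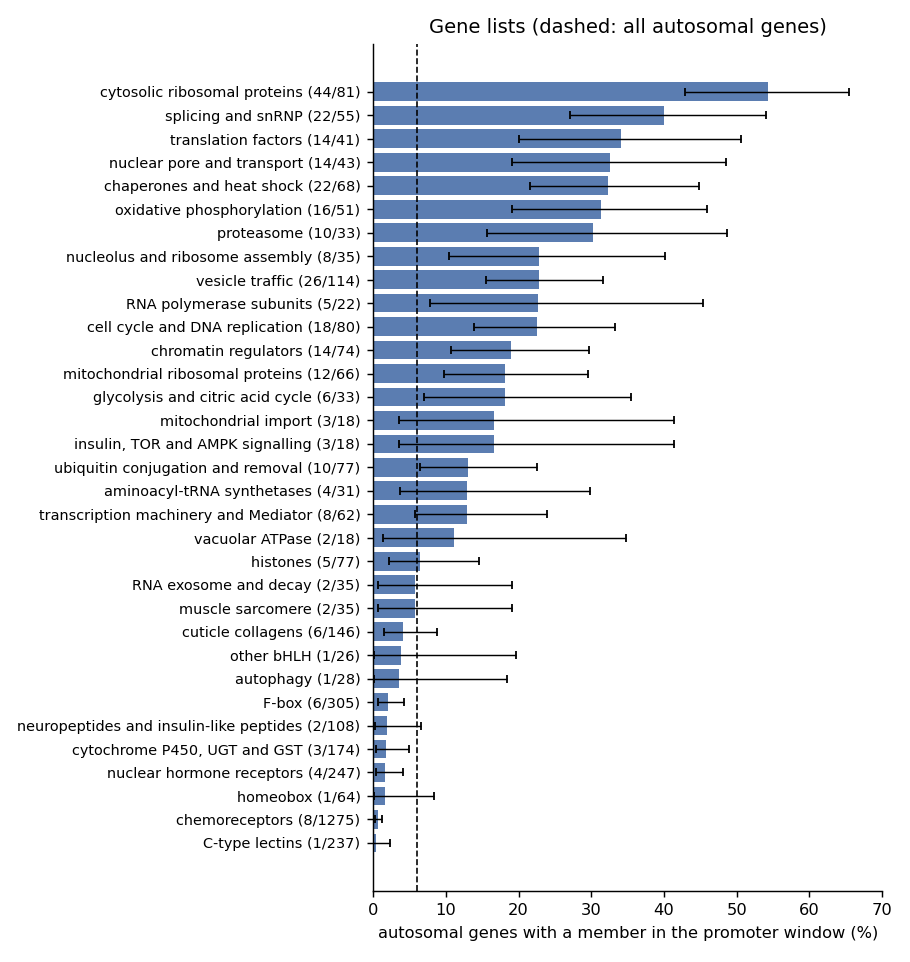
Share of the autosomal genes of each list with a member in the promoter window (x axis, percent), with exact 95% intervals as bars and counts in brackets, for lists of 10 or more genes. The dashed line is the share of all autosomal protein-coding genes, 6.09%, and cytosolic ribosomal proteins lie farthest above it at 54.3%.

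A list gene stood beside 263 of the 511 members. The 34 lists together hold 3777 of the 17242 autosomal genes, and every member has a gene on each strand. In 43 members both nearest genes were in lists, and in 13 of these both were in the same list. The same counts over all divergent pairs were not taken, so these counts only describe the members. The ribosomal pairs were rps-10/rpl-24.1 (score 124), rps-14/rpl-36 (109) and rpl-39/rps-30 (88.2). Pairs of different lists included rpl-12/lin-54 (274), eef-1B.1/aco-2 (171), which joined an elongation factor subunit with mitochondrial aconitase, rpl-28/mrpl-49 (139), which joined a cytosolic and a mitochondrial ribosomal protein, and dnj-19/nhr-47 (127).

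Among divergent peaks CACGTG itself was rarer than among one-sided ones. It lay within 50 bp of 24 of 535 divergent autosomal promoter summits (4.49%) and of 132 of 1086 one-sided summits (12.2%). The odds ratio was 0.339 in a two-sided Fisher's exact test, with p = 7.41e-07 after adjustment over 3 tests. Near 5' ends the difference was in the same direction: 11 of 189 divergent and 27 of 207 one-sided summits within 100 bp held it, and 3.50% and 16.1% of those at 101 to 200 bp. At 301 bp or more the values were 8.20% of 61 and 11.0% of 429. Of the members, 12 had CACGTG within 100 bp but not within 50 bp of the summit.

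The members' DNA was rich in G and C just at the summit. The median G+C content of the 101-bp windows was 47.5%, against 46.5% in one-sided peaks, 38.6% in windows 500 bp to either side and 33.7% in windows centred 100 bp upstream of all autosomal genes. The mean in 20-bp bins reached 52.2% beside the summit and fell to 29.7% at 120 to 140 bp on the left and 29.3% at the same distance on the right. Outside these dips it was 33.5% at 160 to 180 bp on the left and 33.2% on the right. Midpoints of the 1855 divergent pairs whose shared window held no IDR summit stayed at or below 36.9% throughout. CpG dinucleotides averaged 7.61 per window in members, 6.82 in one-sided peaks and 4.28 in the members' flanks.

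**Figure D5:**
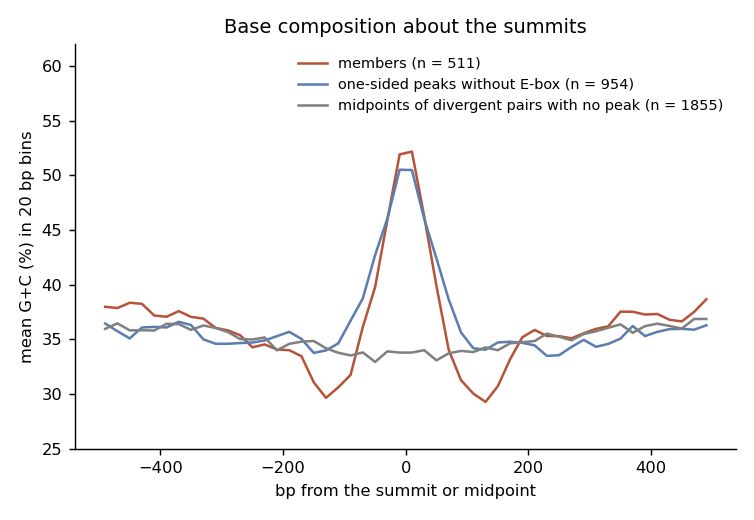
Mean G+C content in 20-bp bins (y axis, percent) by distance from the summit (x axis, bp, plus strand) for members, one-sided peaks without E-box and the midpoints of 1855 divergent gene pairs whose shared window held no IDR summit. Members reach 52.2% beside the summit and fall to 29.3% beyond 120 bp.

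Of 24 short motifs compared between members and one-sided peaks, searched on both strands within the 101-bp window, 1 passed an adjusted p of 0.05, which is 4.17% of them. CTGCGTC was in 43 members (8.41%) and in 167 one-sided peaks (17.5%), an odds ratio of 0.433 with an adjusted p of 2.63e-05 by Fisher's exact test. It was in 1.57% of the members' flanks and 1.85% of all autosomal promoters at 100 bp upstream. In the imp-2/enpl-1 window shown above it lies on the minus strand, and in the mrps-7/Y57G11C.3 window, a mitochondrial ribosomal protein promoter of score 178, on the plus strand. By the same exact test the E-box variants did not pass: CACGCG was in 13.5% of members and 11.2% of one-sided peaks (adjusted p = 0.464), CACGAG in 10.2% and 11.6% (0.650), and CATGCG in 7.83% and 4.19% (0.0624). In the members' flanks CACGCG was in 2.05%, CACGAG in 3.13% and CATGCG in 1.27%. The palindromes ACGCGT and TGCGCA were in 5.48% and 6.26% of members, against 1.08% of the flanks each. In one-sided peaks they were in 4.19% and 5.03%, and neither passed Fisher's exact test (adjusted p = 0.510 and 0.537).

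All 2080 hexamers, a hexamer and its reverse complement counted as one, were then compared in the same way. This scan was added after the motif shares were seen. With an adjusted p under 0.05, 42 hexamers differed between members and one-sided peaks, or 2.02% of those tested, of which 27 were more frequent in members and 15 less frequent. GCGCAC was in 119 members (23.3%) and 12.7% of one-sided peaks, with an adjusted p of 0.000409 by Fisher's exact test. It was in 1.17% of the members' flanks and 2.17% of all promoters. ACCGTA was in 77 members (15.1%) and in 63 one-sided peaks, and AGCGCA, which overlaps GCGCAC by 5 bases, in 13.9% against 6.18%. The hexamers that were less frequent included CGTCTC, in 14.7% against 24.7%, and GAGAGA, in 92 members against 27.7% of one-sided peaks. GGTTCA was in 0.783% against 3.56%. A tRNA gene lay within 200 bp of 3 members (0.587%), 23 one-sided peaks (2.41%) and 5.45% of all IDR peaks. Without these peaks 48 hexamers differed in place of 42, an alternative added after the data were seen, and GGTTCA was not followed separately.

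The count of such hexamers depended on the windows and peaks used. It was 0 with 25 bp to either side of the summit, 162 with 100 bp, 1 in the highest 1935 of the IDR list and 6 among summits within 300 bp of a 5' end. GCGCAC was in 11.5% of members in the 50 bp left of the summit and 12.7% in the 50 bp right of it. In the next 50 bp on the left and right it was in 2.15% and 0.783%. ACCGTA was in 7.63% and 7.83% of members in the 2 inner stretches and in 3.33% and 0.587% in the outer ones. One-sided peaks also held both nearer the summit. There GCGCAC was in 6.39% and 7.23% in the inner stretches and in 1.78% and 1.57% in the outer ones. For ACCGTA the one-sided values were 3.56% and 3.35% against 0.839% and 0.629%. Among the 145 members in the highest 967 IDR peaks, ACCGTA was in 18.6% and GCGCAC in 20.7%, given without a test. Hexamers overlap and share bases, so the 42 are not independent sequences.

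The borders of the definition lay close to other peaks. The farther 5' end was 951 to 1000 bp away in 16 members, with a median score of 52.5, and 14 one-sided peaks would become divergent at 1050 bp, with a median score of 45.6. The lowest member scored 32.9, and the next peak of the same layout below the IDR list, at rank 3875 of the pooled list, scored 32.7. A further 242 peaks of this layout without E-box stood between the end of the IDR list and rank 7740.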

How the data were processed

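ChIP-seq peak lists from 2 biological replicates of whole L1 larvae were used, grouped as 1 group. The authors deposited, for each peak, a position, a summit and a score from their caller, in an optimal IDR list made from both replicates and in relaxed lists per replicate and pooled, in the ce11 build. No source used here names the aligner, the caller or the cutoff on IDR. Relaxed lists end at 30000 peaks, so absence from one means that none of these had its summit within 100 bp. A peak whose summit lay farther off in that replicate also counts as absent. Peaks were ranked within a list, because the score has no scale common to all lists. Depth is unknown.

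Gene 5' ends came from Ensembl release 115 (WBcel235, the ce11 sequence), and sequences were read from the RefSeq assembly of the same build. Of 19973 protein-coding genes, 17242 were autosomal. Motifs were searched in 101-bp windows on both strands. Fisher's exact test, two-sided, compared members with one-sided peaks, and p was adjusted by Benjamini-Hochberg over 3 share tests, over 24 motifs or over 2080 hexamers, at 0.05. Peaks are not replicates, so these tests describe the lists and not the spread between animals, and intervals (Clopper-Pearson, 95%) cover counting error only. Members, lists and motifs were chosen with earlier results of these data known. Named members were the 20 of highest score seen in both replicates, up to 4 genes per list, up to 10 members with both genes in lists, the 5 highest with 5' ends within 300 bp, the 5 highest missing from 1 replicate's highest 3870, and pairs with several members. The hsp-16.2/hsp-16.41, rps-14/rpl-36 and rpl-39/rps-30 members fall outside that rule and were chosen after their values were seen, as were the hexamers printed. The hexamer scan, the limit to summits within 300 bp for results other than the motifs, and the removal of peaks near tRNA genes were also added after the data were seen. The code that assigns promoter windows was checked at random positions near genes. The motif and hexamer tests were run on random sets of promoter windows, and the motif test also with a motif planted in some of them. Python 3.11.15, numpy 2.4.6, scipy 1.17.1 and matplotlib 3.10.9 were used.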

Additional observations from a re-analysis of the deposited data

How the results depend on the processing

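The E-box difference and the CTGCGTC difference kept their direction and stayed past the threshold under every alternative run for them. The number of members was 294 in the highest 1935 of the IDR list. The divergent share of summits was 35.7% there, 28.2% in the 7740 highest pooled peaks, 27.4% with windows of 500 bp upstream and 37.7% with 2000 bp. The share of pairs with a member was 12.3% in the highest 1935 and 30.3% in the 7740 highest. The count of motifs past the threshold was 5 in the 7740 highest, 3 with 500 bp upstream, 2 with 2000 bp, 2 with an E-box distance of 25 bp and 9 with motifs within 100 bp, and it ran from 1 to 2 with 1 replicate's peaks alone. The highest-quarter difference, not past the threshold in the report, passed it unadjusted with 2000 bp upstream (odds ratio 1.42, p = 0.00183 by Fisher's exact test) and with 0 bp downstream (1.30, p = 0.0454). With ranks of 1 replicate alone its odds ratio ran from 1.19 to 1.41, past the threshold with replicate 2 alone (p = 0.00446 by the exact test). The other 6 alternatives did not pass, and the setting reported stays the one planned. The both-replicates difference fell short with a match within 200 bp (odds ratio 1.27) and at any rank (1.87). Among hexamers, added after the data were seen, the count ran from 0 to 162, and the 5 hexamers followed across settings, those the report names other than GGTTCA, all lost their call in the exact test within 25 bp, with adjusted p from 0.0713 to 0.264. In the highest 1935 all but ACCGTA lost it (0.0679 to 0.464). With 500 bp upstream AGCGCA (0.107) and CGTCTC (0.0946) lost it in the exact test, and within 300 bp of a 5' end CGTCTC (0.107) and GAGAGA (0.222). CGTCTC also lost it with replicate 2 alone (0.0698 by the exact test). No alternative reversed a direction, and the cause of the changes was not tested. No paired analysis was possible because the series holds 1 group of 2 replicates. Unknown depth limits what a missing peak means.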
